A study of Mus musculus with 27 samples.

Results

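The genes described here are 9 mouse genes of retinoid uptake and metabolism: Rbp4, Stra6, Rbp2, Bco1, Isx, Dhrs3, Aldh1a1, Aldh1a2 and Aldh1a3. They are 9 of the 35975 annotated genes for which estimated counts were summed in the series. Rbp4 was chosen by its measured level, which was higher in the distal colon of mice lacking Foxa1 and Foxa2, so its values are given as a description with no test. The other 8 genes were taken for their role, with earlier results of these data known, and were tested. The series measured poly(A) RNA from 1 cm pieces of whole colon, proximal and distal, of adult mice of mixed background that carried loxP-flanked (lox) or wild-type (wt) alleles of the forkhead transcription factor genes Foxa1 and Foxa2. Deficient mice were Villin1-Cre; Foxa1 lox/lox; Foxa2 lox/lox, aged 9 to 13 months, with 7 proximal and 7 distal libraries from the same 7 mice, 2 of them labelled female. The control groups held 7 proximal and 6 distal libraries from mice aged 9 to 18 months, none labelled female. Of the 7 control mice, 5 were Foxa1 lox/lox; Foxa2 lox/lox without Cre, control 1 was Villin1-Cre; Foxa1 lox/wt; Foxa2 lox/wt, and control 6 was Villin1-Cre; Foxa1 lox/lox; Foxa2 lox/wt. Villin1-Cre is active in intestinal epithelium, so the muscle, stroma, blood vessels and immune cells of the same pieces keep both genes. In such bulk samples, fewer cells of a type and less RNA per cell cannot be told apart.

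Vitamin A reaches the gut lumen as retinyl esters or as carotenoids such as beta-carotene. Enterocytes take up retinol and carotenoids, cleave carotenoids to retinal, and bind retinol and retinal to cellular binding proteins. They store or export retinyl esters in lipoproteins, and convert retinal to retinoic acid, the ligand of the nuclear receptors RAR and RXR. The liver releases stored retinol bound to Rbp4, and Stra6 on target cells takes it up. Isx, an intestinal homeobox repressor that retinoic acid induces, restrains Bco1 and Scarb1 and so limits carotenoid uptake.

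The depth of the 27 libraries ran from 18472867 to 56744113 estimated counts, with a median of 40556273. Levels are CPM, counts scaled to the size of the library. Deficient libraries had 10.1 to 14.5 CPM of Foxa1 proximally and 7.15 to 10.6 CPM distally. Control libraries had 50.9 to 70.2 and 42.6 to 80.1 CPM, except control 6, which carries Cre with 2 lox alleles of Foxa1 and had 13.9 and 7.53 CPM. Foxa2 did not overlap between the genotypes in either segment, with at most 1.75 CPM in deficient and at least 6.05 CPM in control libraries. The general epithelial marker list (Epcam, Cdh1, keratins, Vil1, Cdx2) was summed per library. Proximally it was at 10304 to 16253 CPM in controls (median 12700) and 11636 to 16561 CPM in deficient libraries (median 13571). Distally it was at 14706 to 22975 CPM in controls (median 18753) and 11151 to 19435 CPM in deficient libraries (median 16698). None of its 8 genes passed by genotype in either segment.

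The Rbp4 gene has 2 alternative first exons, and its transcripts divided the counts unevenly, so the bases before both starts are shown, beside those before the starts of Rbp2 and Bco1, each of which holds 2 of the 3 motifs searched. The sequences are from RefSeq on GRCm38.p6, 5′ to 3′ on the strand of the gene, and leave out bases of annotated exons. Distances below are counted from the RefSeq starts, 38125321 and 38124811 for Rbp4, 98490537 for Rbp2 and 117095865 for Bco1, which can lie inside an exon that begins earlier. Capitals mark matches on either strand to 3 motifs: TGTTTAC, which FOXA and other forkhead factors bind; TATAAA, the core promoter element; and AGGTCA, the half-site of retinoid receptors. No match overlapped another.
Rbp4 upstream start, chr19:38125322-38125571, minus strand: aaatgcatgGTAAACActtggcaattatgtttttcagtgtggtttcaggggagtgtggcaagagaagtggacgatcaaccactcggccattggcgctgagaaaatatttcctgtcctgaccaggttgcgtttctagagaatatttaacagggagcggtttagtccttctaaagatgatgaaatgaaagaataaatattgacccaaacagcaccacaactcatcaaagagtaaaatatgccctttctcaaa
Rbp4 downstream start, chr19:38124829-38124954, minus strand: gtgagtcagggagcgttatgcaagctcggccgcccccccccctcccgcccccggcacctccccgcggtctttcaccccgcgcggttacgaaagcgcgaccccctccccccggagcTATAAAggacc
Rbp2, chr9:98490287-98490536, plus strand: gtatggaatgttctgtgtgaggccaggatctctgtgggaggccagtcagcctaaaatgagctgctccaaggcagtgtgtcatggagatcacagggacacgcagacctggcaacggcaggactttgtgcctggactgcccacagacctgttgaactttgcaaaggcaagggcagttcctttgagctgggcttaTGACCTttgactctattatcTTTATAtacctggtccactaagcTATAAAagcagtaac
Bco1, chr8:117095615-117095853, plus strand: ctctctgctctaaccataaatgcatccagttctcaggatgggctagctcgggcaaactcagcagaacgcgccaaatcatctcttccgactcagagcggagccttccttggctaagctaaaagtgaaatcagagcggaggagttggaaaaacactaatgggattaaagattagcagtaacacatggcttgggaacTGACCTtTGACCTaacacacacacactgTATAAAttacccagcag
RefSeq promoters were at hand for 8 of the 9 genes, and the remaining gene was Aldh1a3. The upstream Rbp4 window held TGTTTAC on the opposite strand 241 bases before the start, a motif found in 3.17% of the 250-base windows of 32851 mouse promoters. The downstream Rbp4 window held TATAAA 28 bases before its start, which 6.62% of 126-base windows hold. In Rbp2, TATAAA lay 15 bases upstream and, on the opposite strand, 38 bases upstream, and AGGTCA lay on the opposite strand 58 bases upstream. Bco1 had TATAAA 28 bases upstream and AGGTCA on the opposite strand 56 and 49 bases upstream. The background shares were 12.4% for TATAAA and 14% for AGGTCA in 250-base windows, and 11.9% and 13.5% in 239-base windows. The windows of Isx, Dhrs3, Stra6, Aldh1a1 and Aldh1a2 held none of these letters.

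Rbp4, the plasma carrier of retinol, lies on chromosome 19 (GRCm38, 38116629 to 38125281, minus strand). In distal control libraries it was at 6.27 CPM at the lowest, 8.89 at the median and 11.3 at the highest. In distal deficient libraries it ran from 23.5 to 55.0 CPM with a median of 33.5. The 2 distal groups did not overlap, and the 7 deficient libraries stood at 37.1 ± 10.6 CPM (SD, n = 7) against 8.82 ± 1.82 CPM (SD, n = 6), a log2 difference of 2.08. Proximally the order was the other way: 7.40 to 12.1 CPM with a median of 8.25 in controls, and 4.87 to 9.52 CPM with a median of 5.88 in deficient libraries. There 4 of 7 deficient libraries lay below the lowest control, the groups overlapped, and the log2 difference was -0.38. Over the alternative analyses the distal difference ran from 1.88 to 2.17 and the proximal from -0.60 to -0.31. Both ranges are a description, since the distal rise chose the gene. Within mice, the ratio of distal to proximal Rbp4 level was 0.67 to 1.22 in 6 controls (median 0.97) and 3.03 to 8.95 in 7 deficient mice (median 6.34). Adipocytes also make Rbp4. The adipocyte marker list (Adipoq, Plin1 and others, 8 genes) summed to 62.4 to 726 CPM in distal control and 17.0 to 226 CPM in distal deficient libraries, and its part in the Rbp4 level was not tested.

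The estimated counts of Rbp4 came almost wholly from 2 transcripts. Rbp4-202 begins at 38124828, in the exon that follows the TATAAA shown above, and Rbp4-201 begins at 38125248. The level of Rbp4-202 was 6.94 ± 1.38 CPM in proximal control, 6.33 ± 1.93 in proximal deficient and 6.32 ± 1.38 in distal control libraries, against 33.4 ± 9.35 CPM in distal deficient ones (SD, n = 7, 7, 6 and 7). Its distal range was 4.78 to 8.63 CPM in controls and 21.2 to 48.8 CPM in deficient mice. Rbp4-201 showed another order. It was at 0.88 to 3.24 CPM in proximal controls and 0.22 to 0.85 CPM in proximal deficient libraries, which did not overlap, while the distal ranges of 0.73 to 3.78 CPM and 1.08 to 6.02 CPM did. The share of Rbp4 counts given to Rbp4-201 was therefore lower in deficient tissue of both segments, at 7.46% ± 2.74 against 22.1% ± 7.52 proximally and 9.34% ± 2.93 against 25.8% ± 11.3 distally. These splits are estimates from reads that the transcripts largely share.

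**Figure D1:**
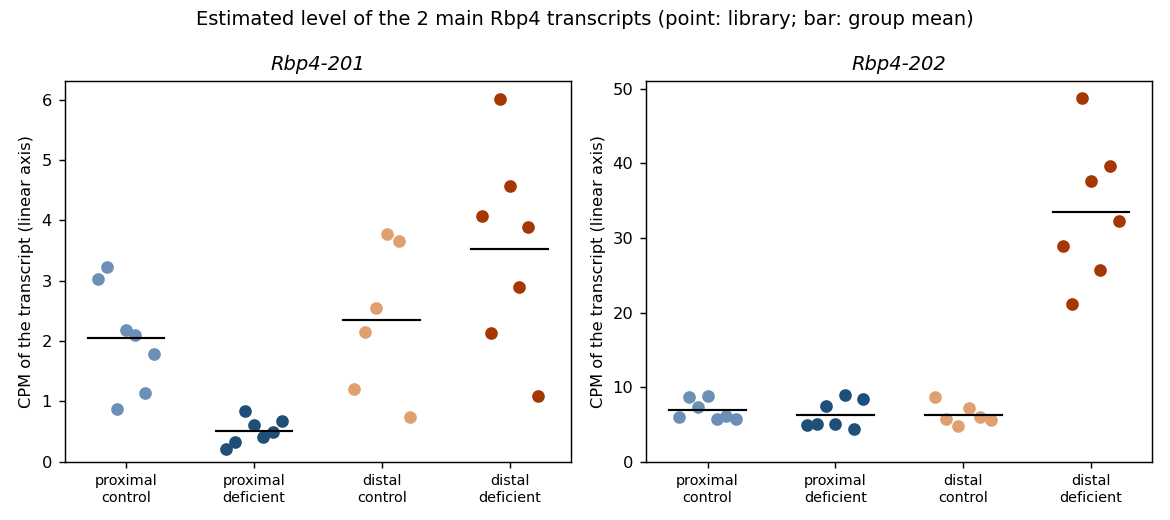
Estimated level (CPM, linear axis starting at 0) of the transcripts Rbp4-201 and Rbp4-202 in each library of the 4 groups, with a bar at the group mean. Rbp4-202 stands at 21.2 to 48.8 CPM in distal deficient libraries and at or below 9.01 CPM in all others, while Rbp4-201 is lowest in proximal deficient libraries, at 0.22 to 0.85 CPM.

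Stra6, the membrane receptor that takes retinol from Rbp4 (chromosome 9, 58063788 to 58153996), was low throughout. In proximal colon it was at 0.53 to 4.92 CPM in controls (median 1.52) and 0.29 to 1.09 CPM in deficient libraries (median 0.57). It fell there by 1.61 on the log2 scale (SE 0.46, adjusted p = 0.0301), with all 7 deficient libraries below the control mean. The 2 highest controls, 5 and 7 at 4.22 and 4.92 CPM, were both aged 18 months, while control 6, also aged 18 months, had 1.07 CPM. With mice of 9 to 13 months alone the difference was -0.83 and did not pass (adjusted p = 0.244), and in the authors' log2 CPM values it was -0.81 (adjusted p = 0.288). The call was lost under 11 of 23 alternatives, among them leaving out control 5 or 7 or deficient 1, 3, 4 or 7 (adjusted p from 0.0597 to 0.0775). Distally, Stra6 was at 1.91 to 9.27 CPM in controls (median 3.47) and 1.22 to 15.5 CPM in deficient libraries (median 8.07), which differed by 0.95 (SE 0.56, adjusted p = 0.415). The distal deficient libraries were split: deficient 1 and 2 had 1.35 and 1.22 CPM, below every distal control, and the other 5 had 6.94 to 15.5 CPM.

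Rbp2, the cellular retinol-binding protein of absorptive enterocytes (chromosome 9, 98486115 to 98509781), rose in the proximal colon. Its level was 3.97 to 14.7 CPM in controls (median 12.1) and 20.3 to 92.5 CPM in deficient libraries (median 41.5). The groups did not overlap, the means were 10.3 ± 4.56 and 48.0 ± 24.5 CPM (SD, n = 7 each), and the log2 difference was 2.23 (SE 0.36, adjusted p = 0.000482). In the distal colon it was at 10.7 to 51.4 CPM in controls (median 14.9) and 9.83 to 46.1 CPM in deficient libraries (median 12.7), a difference of -0.41 (SE 0.44, adjusted p = 0.698). The highest distal values were 51.4 and 39.4 CPM, in the Cre-carrying controls 1 and 6, and 46.1 CPM in deficient 1. The other 10 distal libraries lay between 9.83 and 18.6 CPM in both genotypes.

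In proximal colon the higher Rbp2 level came with higher levels of a wider list of markers of small-intestinal enterocytes (Apoa4, Fabp1, Sis, Lct and others, 12 genes). That list summed to 466 to 928 CPM in proximal control and 1041 to 3410 CPM in proximal deficient libraries, and 9 of its 10 tested genes rose. None of its genes was at 0 in every library of a group. In distal colon 5 of its 8 tested genes rose, with sums of 47.4 to 351 CPM in controls and 109 to 439 CPM in deficient libraries, while Rbp2 did not pass. Distal controls 1 and 6, the highest controls in Rbp2, had the lowest sums of this list among distal controls, 47.4 and 86.9 CPM. Deficient 1, the highest deficient library in Rbp2, had the highest distal sum, 439 CPM. The part of this list in the Rbp2 difference was not tested.

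Bco1, the enzyme that cleaves beta-carotene into retinal (chromosome 8, 117095854 to 117133720), was at 1.29 to 2.42 CPM in proximal controls (median 1.53) and 1.45 to 3.46 CPM in proximal deficient libraries (median 2.28). The proximal difference was 0.57 (SE 0.20) and did not pass (adjusted p = 0.0923), with 6 of 7 deficient libraries above the control mean. Without deficient 2 it was 0.65 and passed (adjusted p = 0.0317). Distally it was at 1.89 to 5.96 CPM in controls and 1.87 to 3.81 CPM in deficient libraries, a difference of 0.01 (SE 0.26, adjusted p = 0.990). As with Rbp2, the 2 highest distal controls were the Cre carriers, at 5.96 CPM in control 1 and 3.57 CPM in control 6.

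Isx (chromosome 8, 74873173 to 74893506) was the only tested gene of the set that passed by genotype in the distal colon, where it fell. Its level there was 10.3 to 49.8 CPM in controls (median 32.6) and 5.45 to 17.5 CPM in deficient libraries (median 9.14). All 7 deficient libraries lay below the control mean and 5 below the lowest control, a log2 difference of -1.52 (SE 0.38, adjusted p = 0.0273). The groups overlapped only through the Cre-carrying controls 1 and 6, at 10.3 and 13.4 CPM, and deficient 1 and 2, at 16.8 and 17.5 CPM. The 4 distal controls without Cre had 31.6 to 49.8 CPM. The adjusted p rose to 0.0541 to 0.0698 when any of control 2, 3 or 4 or deficient 3, 4, 5, 6 or 7 was left out, and to 0.115 in mice labelled male, with differences of -1.32 to -1.49. In the proximal colon Isx was at 118 to 156 CPM in controls and 92.8 to 147 CPM in deficient libraries, and the difference of -0.12 (SE 0.10) did not pass (adjusted p = 0.535).

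Dhrs3, which reduces retinal back to retinol (chromosome 4, 144892827 to 144928209), differed by -0.22 proximally (SE 0.11, adjusted p = 0.255) and by -0.37 distally (SE 0.17, adjusted p = 0.256). The proximal libraries were at 24.9 to 45.5 CPM in controls (median 40.0) and 29.6 to 38.7 CPM in deficient mice (median 32.3). Control 6 was the lowest control in both segments, at 24.9 CPM proximally and 20.2 CPM distally. Without it the proximal difference was -0.31 and passed (adjusted p = 0.00926). Distal libraries were at 20.2 to 38.0 CPM in controls (median 35.9) and 20.02 to 34.1 CPM in deficient mice (median 24.1).

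Aldh1a1, Aldh1a2 and Aldh1a3 oxidise retinal to retinoic acid. Aldh1a1 (chromosome 19, 20492715 to 20643465) rose in proximal colon, from 411 to 692 CPM in controls (median 440.5) to 551 to 821 CPM in deficient libraries (median 686). All 7 deficient libraries were above the control mean, the groups overlapped through control 6 at 692 CPM, and the log2 difference was 0.54 (SE 0.12, adjusted p = 0.00739). In distal colon Aldh1a1 was at 15.4 to 127 CPM in controls (median 63.2) and 5.08 to 49.6 CPM in deficient libraries (median 14.8). That difference of -1.62 (SE 0.57) did not pass (adjusted p = 0.126). The 2 lowest controls were again the Cre carriers, at 26.7 CPM in control 1 and 15.4 CPM in control 6, and against the 4 controls without Cre the difference was -2.07 (adjusted p = 0.0373).

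Aldh1a3 (chromosome 7, 66390890 to 66427517) was at 4.76 to 7.35 CPM in proximal controls and 4.88 to 7.72 CPM in proximal deficient libraries, a difference of 0.17 (SE 0.14, adjusted p = 0.511). In distal colon the values spread widely, from 1.94 to 19.4 CPM in controls (median 4.29) and from 1.99 to 41.9 CPM in deficient libraries (median 20.5). Deficient 1 and 2 had 2.37 and 1.99 CPM, whereas deficient 3 to 7 had 17.8 to 41.9 CPM, and control 6 reached 19.4 CPM while the other 5 controls stayed at or below 5.40 CPM. The distal difference of 1.69 (SE 0.70) did not pass (adjusted p = 0.209).

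The squamous epithelial marker list (Krt14, Krt13, Krt15, Trp63 and others, 8 genes) took high sums in the same distal libraries as Aldh1a3. It summed to 4.59 and 4.32 CPM in deficient 1 and 2, to 9.18 to 12.5 CPM in deficient 3 to 7, to 10.5 CPM in control 6 and to 4.11 to 5.65 CPM in the other 5 controls. Of its 4 genes tested in distal colon, Krt15 rose by 1.162 (SE 0.30, adjusted p = 0.0300), while Krt13 differed by 1.52 (adjusted p = 0.103), Krt14 by 0.93 (adjusted p = 0.352) and Dsg3, in the other direction, by -1.01 (adjusted p = 0.0556). No gene of the list was at 0 in every library of a distal group. The dendritic cell marker list (Flt3, Zbtb46, Itgax and others, 8 genes) was split in the same deficient libraries, at 12.4 and 17.3 CPM in deficient 1 and 2 and 24.1 to 54.8 CPM in deficient 3 to 7. In distal controls it was highest in control 5, at 34.3 CPM, where Stra6 was highest too, and the other 5 had 12.3 to 19.4 CPM. Proximal controls 5 and 7, the highest in Stra6, had 25.8 and 23.1 CPM, and the other 5 had 12.5 to 22.1 CPM. In proximal deficient libraries, where Stra6 was lower, the dendritic cell list summed to 18.2 to 21.9 CPM. None of its 8 genes passed by genotype in either segment. The part of either list in the Aldh1a3 and Stra6 values was not tested. Deficient 1 and 2 were both 9 months old and deficient 3 to 7 were 10 to 13 months old, so age and this split cannot be told apart.

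Aldh1a2 (chromosome 9, 71215789 to 71296243) passed in no comparison of genotype. It was at 4.01 to 7.45 CPM in proximal control and 2.85 to 7.43 CPM in proximal deficient libraries (difference -0.35, SE 0.21, adjusted p = 0.342). The distal levels were 2.46 to 7.81 CPM in controls and 0.51 to 7.74 CPM in deficient libraries (difference -0.70, SE 0.50, adjusted p = 0.514). Its lowest distal values were 0.51 CPM in deficient 3 and 1.12 CPM in deficient 6, and its highest in a deficient library, 7.74 CPM, was in deficient 4. The mesothelial marker list (Wt1, Msln and others, 7 genes) summed to 8.49 to 60.7 CPM in distal control and 16.7 to 60.8 CPM in distal deficient libraries, with its lowest deficient sums in deficient 2 and 1, at 16.7 and 19.2 CPM, which were not the libraries lowest in Aldh1a2. The adipocyte list was lowest in deficient 3 and 6, at 17.0 and 19.1 CPM, and highest among deficient libraries in deficient 4, at 226 CPM. Among controls its highest sum was 726 CPM in control 1, whose Aldh1a2 level was 7.16 CPM. The control highest in Aldh1a2, at 7.81 CPM, was another library, and the other controls had adipocyte sums of 62.4 to 152 CPM. The fibroblast list (Pdgfra, Dcn and others, 8 genes) was lowest among distal libraries in deficient 3, at 237 CPM, and stood at 601 CPM in deficient 6. The endothelial list (Pecam1, Cdh5 and others, 8 genes) was also lowest in deficient 3, at 40.7 CPM, with 87.7 CPM in deficient 6. The smooth muscle list (Acta2, Myh11 and others, 8 genes) had 689 and 1314 CPM in deficient 3 and 6, and its lowest distal sum, 594.5 CPM, in deficient 7. The part of any of these lists in the Aldh1a2 values was not tested.

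**Figure D2:**
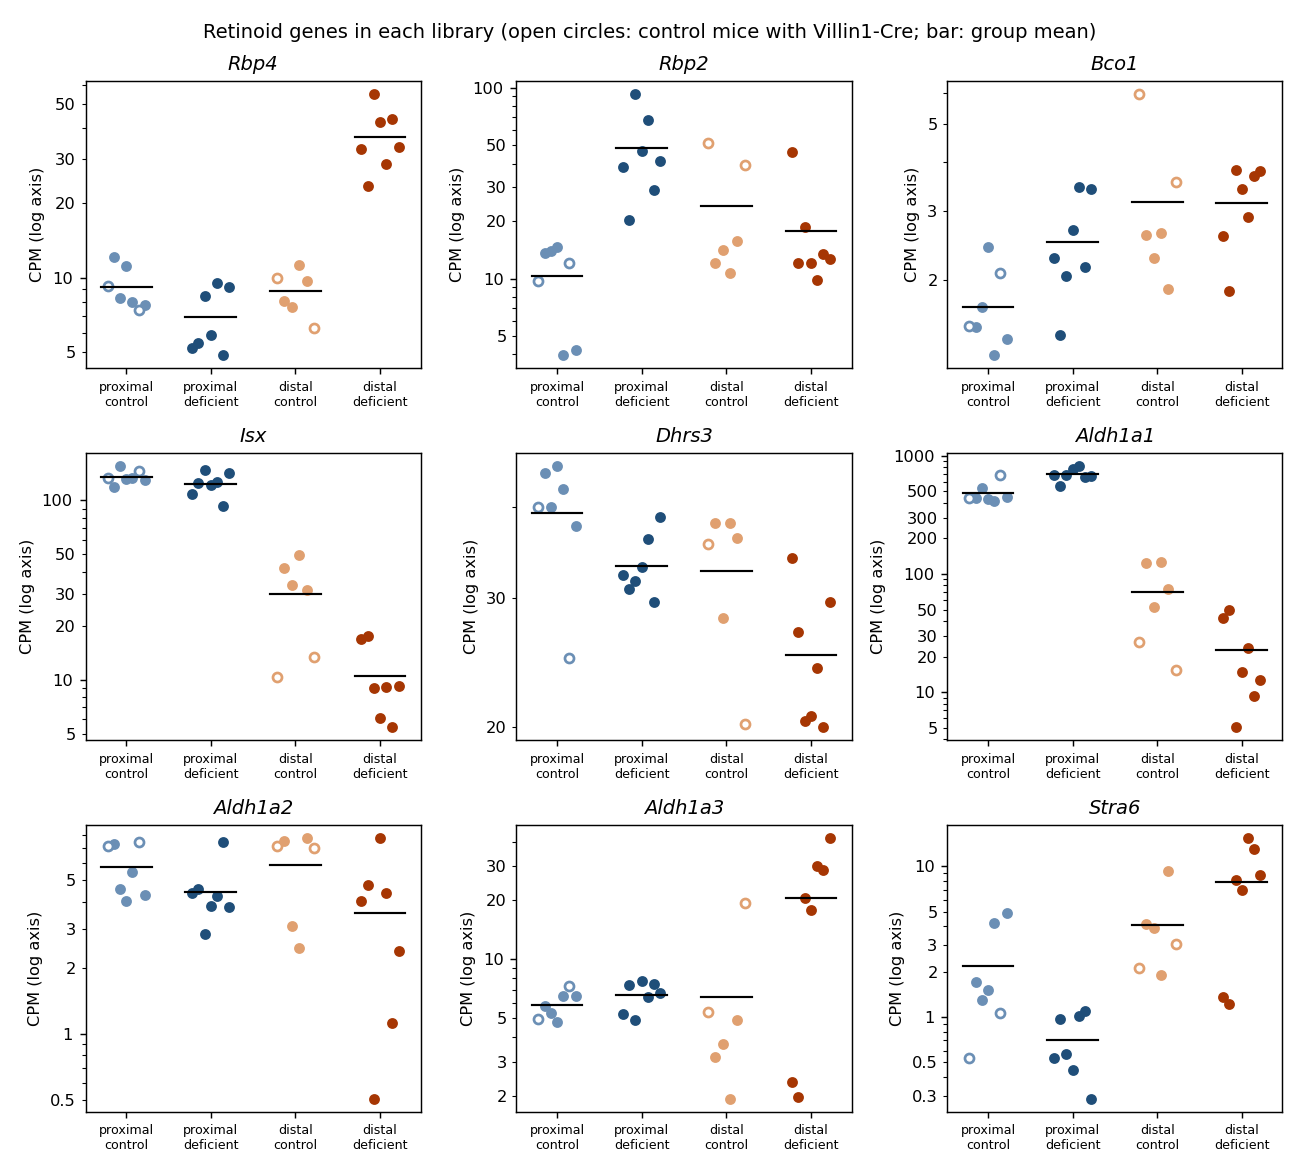
Level (CPM, log axis) of the 9 genes in each of 27 libraries, by group, with open circles for control mice that carry Villin1-Cre and a bar at the group mean. Rbp4 is at 23.5 to 55.0 CPM in distal deficient libraries and at 4.87 to 12.1 CPM elsewhere, Rbp2 separates the genotypes proximally, and Isx and Aldh1a1 are higher proximally than distally in every mouse sampled in both segments.

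**Figure D3:**
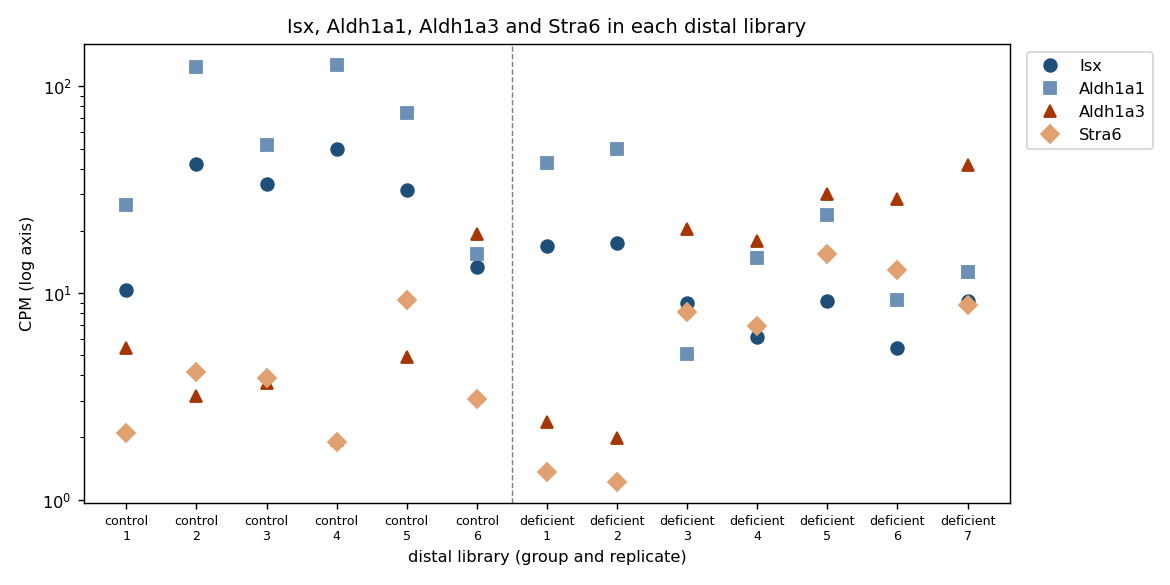
Levels (CPM, log axis) of Isx, Aldh1a1, Aldh1a3 and Stra6 in the 6 control and 7 deficient distal libraries. Deficient 1 and 2 have 1.99 to 2.37 CPM of Aldh1a3 and 1.22 to 1.35 CPM of Stra6, while deficient 3 to 7 have 17.8 to 41.9 and 6.94 to 15.5 CPM.

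Counted together, 3 of the 8 tested genes changed by genotype in proximal colon, Rbp2 and Aldh1a1 upwards and Stra6 downwards, where 11.7% of the 16787 genes tested were called (5.52% higher, 6.17% lower). In distal colon 1 of 8, Isx, was called, where 6.07% of 16041 genes were (2.7% higher, 3.37% lower). The median log2 difference of the 8 genes was 0.03 proximally and -0.39 distally, beside 0.01 in both segments for all genes tested. At an unadjusted p under 0.05 the counts were 4 in each segment, adding Bco1 proximally, and Dhrs3, Aldh1a1 and Aldh1a3 distally. At least 3831 of the 16787 genes tested proximally and 2937 of the 16041 tested distally reached that p. With 8 genes, these counts do not set the group apart from the other genes.

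Whether the genotype difference itself differed between segments was tested on 26 libraries of 13 mice with the mouse as a block. None of the 8 genes passed in edgeR, where 1.01% of 17595 genes did (0.432% higher and 0.58% lower distally). At an unadjusted p under 0.05 there were 4, Rbp2, Isx, Aldh1a1 and Stra6, where at least 1935 of the 17595 genes reached that p. DESeq2 called 4 of the 8 genes, where it called 528 of 17253 genes. For Rbp2 the genotype difference was lower distally than proximally by a log2 value of -2.39 (SE 0.58, adjusted p = 0.0665). The values were -2.22 for Aldh1a1 (SE 0.68, adjusted p = 0.170), -1.30 for Isx (SE 0.40, adjusted p = 0.172) and 1.90 for Stra6 (SE 0.62, adjusted p = 0.210). DESeq2 gave adjusted p of 0.000511, 0.0350, 0.0275 and 0.0364 for these 4 genes in that order. Leaving out deficient 1 brought Rbp2 to -2.67 (adjusted p = 0.0265), and leaving out deficient 2 brought Stra6 to 2.33 (adjusted p = 0.0232). Rbp4, which was not tested, had a value of 2.51.

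**Figure D4:**
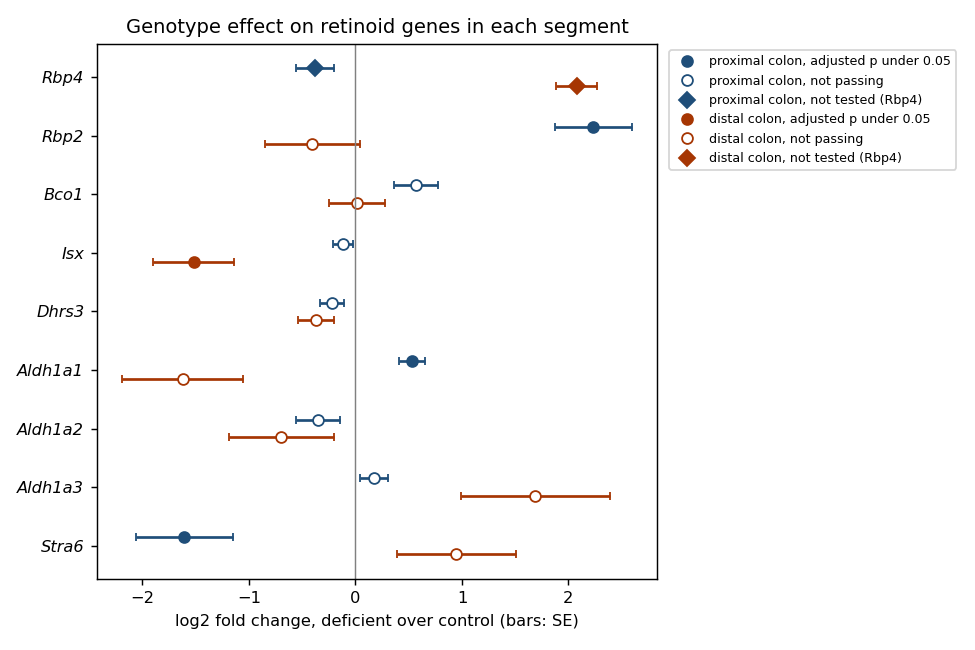
Log2 fold change (deficient over control, bars show SE) of each gene in proximal and distal colon, filled where the adjusted p is under 0.05, open where it is not, and as diamonds for Rbp4, which was not tested. Rbp2 stands at 2.23 proximally and -0.41 distally, and Isx at -0.12 and -1.52.

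Between the 2 segments of the same control mice, 5 of 8 genes passed, where 43.8% of 16507 genes did (21.5% higher and 22.3% lower in distal colon). Aldh1a1 was lower in distal colon by a log2 value of -3.09 (SE 0.48, adjusted p = 0.000938) and Isx by -2.35 (SE 0.31, adjusted p = 0.000414), both in 6 of 6 mice. Stra6 was higher distally by 1.30 (SE 0.22, adjusted p = 0.00143) and Bco1 by 0.77 (SE 0.24, adjusted p = 0.0284), again in 6 of 6 mice. Dhrs3 was lower by -0.27 (SE 0.08, adjusted p = 0.0280). The Bco1 and Dhrs3 calls were each lost under 7 alternatives, among them leaving out control 1, 2, 5 or 6 for Bco1 (adjusted p from 0.0524 to 0.0695) and control 2, 3, 4 or 5 for Dhrs3 (adjusted p from 0.0517 to 0.0731). Rbp2, at 0.91 (SE 0.41, adjusted p = 0.0948), did not pass unless control 4 was left out (1.199, adjusted p = 0.0460).

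In deficient mice 5 of 8 genes also passed, where 45.1% of 16514 genes did (22.7% higher, 22.4% lower). Aldh1a1 was lower distally by -5.32 (SE 0.45, adjusted p = 2.38e-05) and Isx by -3.66 (SE 0.23, adjusted p = 3.34e-06). The median ratio of distal to proximal level was 0.0191 for Aldh1a1, beside 0.139 in controls, and 0.0644 for Isx, beside 0.227. Stra6 was higher by 3.19 (SE 0.54, adjusted p = 0.00117) in 7 of 7 mice, with ratios from 1.25 to 30.3. Rbp2 was lower by -1.48 (SE 0.33, adjusted p = 0.00549) in 6 of 7 mice and Dhrs3 by -0.42 (SE 0.11, adjusted p = 0.0112) in 6 of 7. Aldh1a3, at 1.17 (SE 0.57, adjusted p = 0.116), was higher distally in 5 of 7 mice. It passed without deficient 1 (1.53, adjusted p = 0.0386) or deficient 2 (1.60, adjusted p = 0.0172). The segment comparisons carry a difference in how the authors' files treat fragment length: the median transcript length exceeded the effective length by 249 bases in distal libraries and by 215 to 246 bases in proximal ones. With it, Rbp2 counts went to Rbp2-201 for 99.5% and 99.9% in proximal control and deficient libraries, but for 72.0% and 67.1% in distal ones. Segment and quantification cannot be told apart for such transcript shares, nor for the gene levels compared between segments.

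Compared per length, as TPM, which also scales by transcript length, the order of the 9 genes changed with segment and genotype. In proximal controls Aldh1a1 led at 355 ± 76.5 TPM, followed by Isx at 117 ± 7.61, then Dhrs3 (41.3 ± 7.58), Rbp2 (31.1 ± 13.4) and Rbp4 (16.8 ± 3.65), in which neighbours overlapped within 1 SD, and the other 4 genes lay at or below 3.79 TPM. In proximal deficient libraries Aldh1a1 (515 ± 32.2 TPM) was followed by Rbp2 at 142 ± 64.2, which overlapped Isx at 109 ± 16.7. In distal controls the spreads of the first 5, from Rbp2 at 58.0 ± 36.6 TPM to Rbp4 at 13.5 ± 2.78, overlapped from neighbour to neighbour. In distal deficient libraries Rbp4 had the highest mean of the set at 62.0 ± 14.4 TPM, overlapping Rbp2 at 48.7 ± 29.2. Bco1 stayed low in every group, from 1.08 ± 0.24 to 1.77 ± 0.33 TPM.

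The rest of the pathway was read from a list of 64 other genes in 9 roles, 63 of them annotated. In proximal colon 50 could be tested, 10 rose and 8 fell, with a median log2 difference of 0.09. In distal colon 50 could be tested, 5 rose and 7 fell, with a median of -0.22. The median of all genes tested was 0.01 in each segment, and the shares called are those given above.

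Among uptake and plasma transport genes, Ttr, the plasma partner of Rbp4, fell in both segments, from 1.19 ± 0.57 to 0.101 ± 0.065 CPM proximally (log2 -3.52, SE 0.42, adjusted p = 3.14e-05). Distally Ttr went from 4.79 ± 3.81 to 0.791 ± 0.512 CPM (-2.58, SE 0.49, adjusted p = 0.00538). Mttp, which loads lipid onto the lipoproteins that carry retinyl esters, rose in both, by 3.46 proximally (SE 0.36, adjusted p = 7.78e-06) and 1.65 distally (SE 0.23, adjusted p = 0.000543); it is also a gene of the enterocyte marker list. Apob, the protein of those lipoproteins, rose proximally by 1.37 (SE 0.23, adjusted p = 0.000768), and its distal difference of -0.97 (SE 0.37) did not pass (adjusted p = 0.163). Scarb1, a carotenoid receptor and a target of Isx, rose distally, from 16.3 ± 2.69 to 32.3 ± 10.9 CPM (0.99, SE 0.19, adjusted p = 0.00481). Its proximal difference was 0.42 (SE 0.14, adjusted p = 0.0732). The remaining 5 genes of this role, Stra6l, Cd36, Lrp2, Cubn and Lpl, passed in neither segment.

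Of the carotenoid and binding genes, Bco2, the other carotenoid oxygenase, fell distally by 1.05 on the log2 scale (SE 0.29, adjusted p = 0.0438), a call lost under 12 alternatives, among them leaving out control 1, 2, 4 or 5 or any of deficient 3 to 7 (adjusted p from 0.0586 to 0.0998). Rbp7, a cellular retinol-binding protein, rose by 2.06 proximally (SE 0.36, adjusted p = 0.00110) and 1.18 distally (SE 0.23, adjusted p = 0.00661). Crabp2, a binding protein of retinoic acid, was too low to test, with group means at or below 0.014 CPM.

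In retinyl ester handling, proximal colon had higher levels of the 2 esterifying enzymes and lower levels of 2 esterases. Lrat, the main retinol esterifying enzyme, rose by 0.64 (SE 0.17, adjusted p = 0.0193), a call lost under 5 alternatives, such as leaving out deficient 4 (adjusted p = 0.0534). Dgat1, which also esterifies retinol, rose by 0.75 (SE 0.09, adjusted p = 2.87e-05). The carboxylesterases Ces1d and Ces1e fell by 0.94 and 0.83 (SE 0.12 each, adjusted p = 5.27e-05 and 0.000268). In distal colon none of the 5 tested genes of this role passed; Lrat differed by 0.80 (SE 0.71, adjusted p = 0.617).

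Among the oxidoreductases of retinol and retinal, 1 of 15 rose and 3 fell proximally, and 1 of 16 rose and 5 fell distally. Those that fell distally were Rdh9, Akr1b7, Adh7, Dhrs9 and Retsat. Rdh12, a retinal reductase, rose in both segments, by 0.89 (SE 0.18, adjusted p = 0.00389) and 1.34 (SE 0.26, adjusted p = 0.00609). Akr1b7, an aldo-keto reductase, fell in both, by 1.13 (SE 0.20, adjusted p = 0.00132) and 2.18 (SE 0.42, adjusted p = 0.00617). Rdh9, a retinol dehydrogenase family member abundant in distal colon, fell there from 164 ± 54.7 to 56.0 ± 16.3 CPM (-1.54, SE 0.22, adjusted p = 0.000689). Adh1, an alcohol dehydrogenase that oxidises retinol, fell proximally by 0.68 (SE 0.11, adjusted p = 0.000506), and distally its 817 ± 395 and 657 ± 183 CPM differed by -0.31 (SE 0.26, adjusted p = 0.599). Rdh10, the retinol dehydrogenase of retinoic acid synthesis, differed by -0.27 proximally (SE 0.09, adjusted p = 0.0709) and 0.12 distally (SE 0.20, adjusted p = 0.811). Its proximal difference passed without control 2 (-0.30, adjusted p = 0.0487) or deficient 4 (-0.34, adjusted p = 0.0164). In the retinal oxidation role, Aldh8a1 rose proximally by 1.98 (SE 0.44, adjusted p = 0.00639).

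Of the 5 nuclear receptors tested, 1 rose proximally and none passed distally. Rara, Rarg and Rxra passed in neither segment, with proximal differences of 0.14, -0.06 and 0.15 (SE 0.09 each) and distal differences of 0.06 (SE 0.19), 0.17 (SE 0.18) and 0.05 (SE 0.12). Rarb, both a receptor and a gene that retinoic acid induces, rose proximally from 0.421 ± 0.138 to 0.812 ± 0.288 CPM (0.96, SE 0.27, adjusted p = 0.0314), and distally differed by -0.36 (SE 0.41, adjusted p = 0.709). Its call was lost under 11 alternatives, among them leaving out control 1 or 7 or deficient 5, 6 or 7 (adjusted p from 0.0535 to 0.0742). Of the enzymes that break retinoic acid down, Cyp26a1, a common readout of retinoic acid, was too low to test, with group means at or below 0.041 CPM, and Cyp26b1 differed by 0.38 (SE 0.37, adjusted p = 0.616) and 0.59 (SE 0.31, adjusted p = 0.338). Cyp2s1 fell proximally by 0.97 (SE 0.11, adjusted p = 1.56e-05). Among 7 tested genes that respond to retinoic acid, Rarres1 rose (0.74, SE 0.21, adjusted p = 0.0271) and Cdx1 fell (-0.32, SE 0.07, adjusted p = 0.00491) in proximal colon, and Tgm2, a transglutaminase, rose in distal colon (1.00, SE 0.26, adjusted p = 0.0328). The calls of Rarres1 and Tgm2 were each lost under 12 alternatives. For Rarres1 these included leaving out control 1, 2, 3 or 5 or deficient 3, 4 or 7 (adjusted p from 0.0535 to 0.0655), and for Tgm2 control 1, 2, 4 or 5 or deficient 3, 4, 5 or 7 (adjusted p from 0.0509 to 0.0780).

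**Figure D5:**
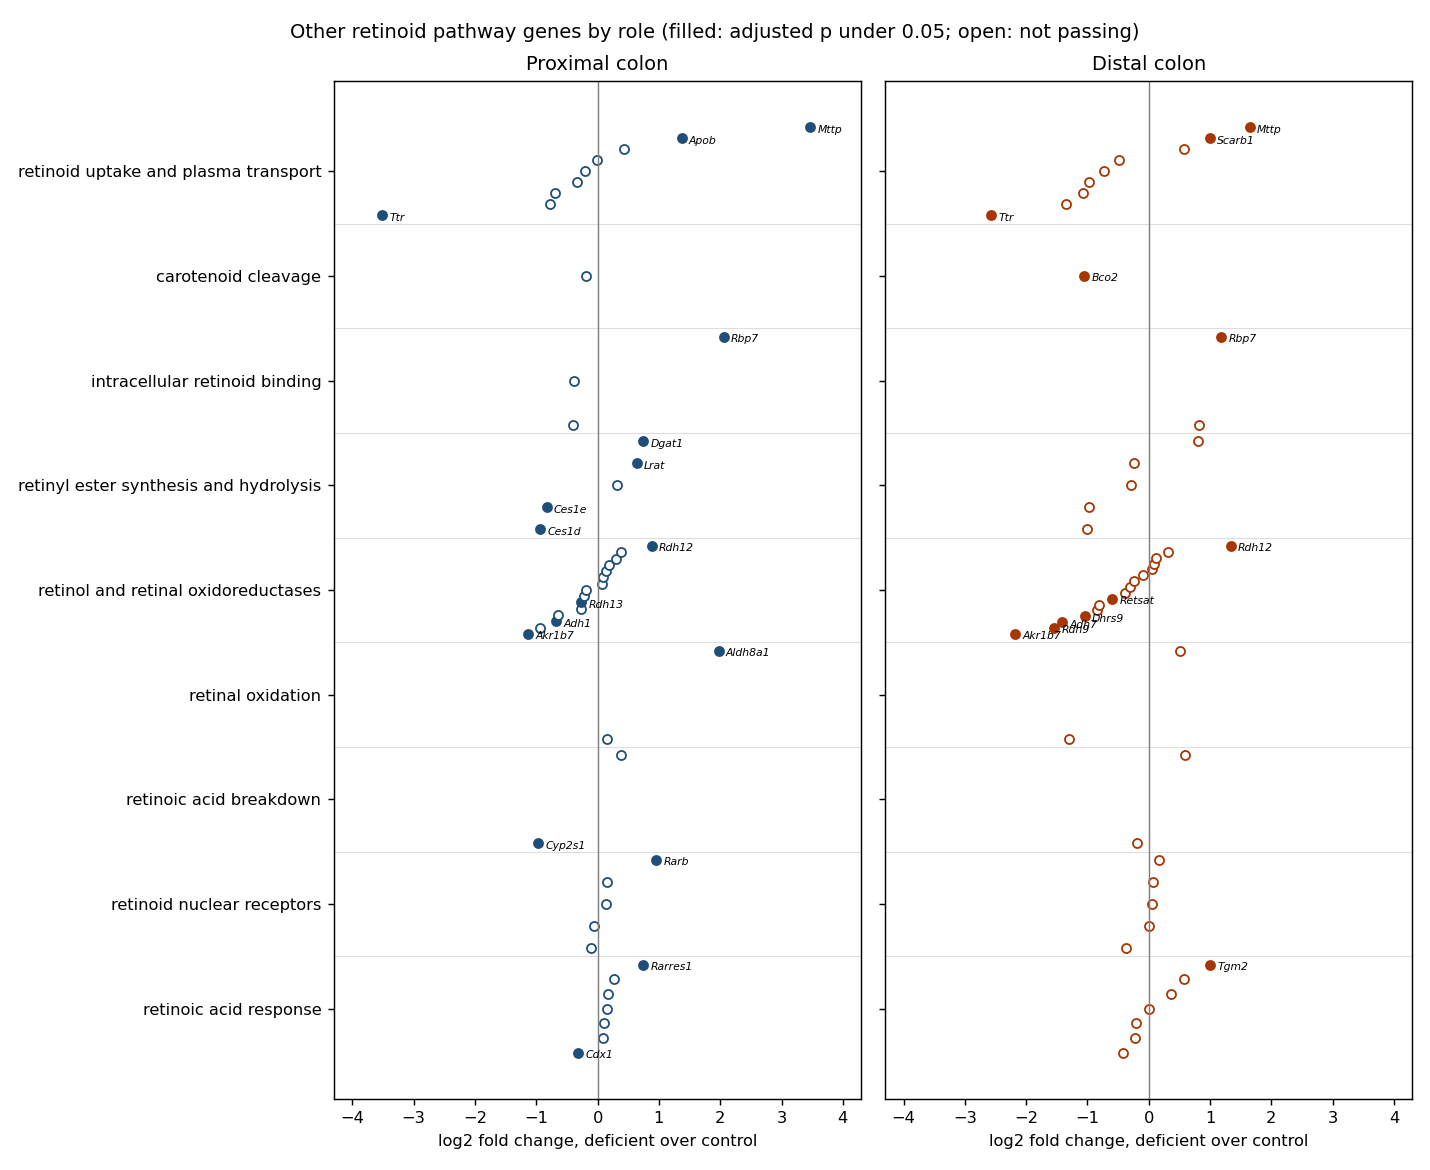
Log2 fold change (deficient over control) of tested pathway genes other than the 9 described, by role, in proximal and distal colon, filled and named where the adjusted p is under 0.05. Proximally Mttp stands at 3.46 and Ttr at -3.52; distally the same 2 genes mark the ends of the filled points, at 1.65 and -2.58.

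For 2 of the 53 pathway genes tested the genotype difference itself differed between segments, both lower distally, where 0.58% of all genes were called in that direction. Apob had a value of -2.28 (SE 0.32, adjusted p = 0.00366) and Dgat1 of -0.96 (SE 0.18, adjusted p = 0.0174). Proximal Apob levels were 72.9 to 153 CPM in controls and 166 to 468 CPM in deficient libraries, which did not overlap. Distal levels were 54.9 to 307 and 42.2 to 174 CPM. Dgat1 was at 34.6 to 44.2 CPM in proximal controls and 47.4 to 71.4 CPM in proximal deficient libraries, without overlap, and distally at 31.5 to 45.1 and 23.7 to 46.5 CPM.

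Finally, the genes most like Rbp4 in their pattern over all 27 libraries were listed, by the mean absolute difference between standardised log2 CPM values. Over 11780 candidate genes the median of this measure was 1.12 SD. Fzd7, a Wnt receptor, came closest at 0.34 SD, with group means of 31.4 ± 8.33 CPM in distal deficient, 12.2 ± 2.34 in distal control, 11.4 ± 1.19 in proximal deficient and 12.3 ± 1.35 CPM in proximal control libraries. It was followed by Dync1i1 (a dynein chain, 0.36), Tnfrsf11b (osteoprotegerin, 0.36), Rdx (radixin, 0.38), Map2 (a microtubule protein, 0.38), Krt36 (a keratin, 0.40), Ccl7 (a chemokine, 0.42) and Cnp (0.45). The libraries share animals and sequencing, and genes chosen for likeness are a description.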

How the data were processed

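Per the submitters' processing notes, the authors processed reads with bcl2fastq 2.20.0.422 and cutadapt 2.5, quantified transcripts with kallisto 0.46.2 and used edgeR, naming the builds GRCm38 and mm10. The deposited files give estimated counts, TPM and effective length per transcript for each of 27 libraries, and the authors also deposited log2 CPM matrices per segment, whose normalisation the sources used here do not state. Estimated counts were rounded after summing per gene: 116728 of 119414 transcripts matched GENCODE M21, giving 35975 genes, and unmatched transcripts held 0.902% to 1.269% of a library. R 4.3.3 with edgeR 4.0.16 (filterByExpr, TMM, quasi-likelihood test) was fitted on all genes, and p-values were adjusted by Benjamini-Hochberg over all genes tested (threshold 0.05). Genotype was compared within a segment, and segments within mice with the mouse as a block; replicates are separate mice. Levels are CPM on TMM-scaled library sizes without a filter, and likeness to Rbp4 used log2(CPM + 0.5) over genes reaching a group mean of 5 CPM. The SE given with an edgeR log2 difference, that of Rbp4 included, is the absolute difference divided by the square root of the quasi-likelihood F statistic. The fits were tested on simulated data. Alternatives used DESeq2 1.42.0, limma 3.58.1 on the authors' log2 CPM, a transcript-length offset, no filter, fewer mice, and other blocks. The 9 genes, the pathway and marker lists and the tests were chosen with earlier results of these data known. Named pathway genes are up to 3 per role and genotype comparison, by smallest p among those passing, plus Rara, Rarb, Rarg, Rxra, Cyp26a1, Cyp26b1, Lrat, Rdh10 and Crabp2; 1 further gene is in the list's counts but not reported here, and genes listed as not passing complete a role. The number of mice, and for low genes the depth, limits the precision.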

Additional observations from a re-analysis of the deposited data

Results flagged for a closer look

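In 36 groups of 6 or 7 libraries (9 genes in 4 groups), 5 had a library whose gap to its nearest neighbour exceeded the 95% critical value for the group's range; chance alone flags about 1 group in 20. Rbp2 was at 46.05 CPM in distal deficient 1, where the next library had 18.62 CPM. Dhrs3 was at 24.85 CPM in proximal control 6, below the next at 37.63 CPM. Aldh1a2 was at 7.434 CPM in proximal deficient 6, above 4.577 CPM. Aldh1a3 was at 19.36 CPM in distal control 6, above 5.401 CPM, and Stra6 at 9.265 CPM in distal control 5, above 4.171 CPM. Among the other pathway genes, the genotype effect differed between segments for Apob, by -2.28 (log2, distal minus proximal), and for Dgat1, by -0.9606, in the edgeR test of that difference.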

How the results depend on the processing

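No called value changed direction under the alternatives run, while Rbp2 in distal colon, which was not called, ran from -0.85 to 0.44. Of 8 genes, the proximal count of 3 ranged from 2 to 4 without single replicates. The distal count of 1 became 2 with controls without Cre, 0 in mice labelled male and 0 with the replicate block, and was 0 to 1 without single replicates. For the difference between segments the count of 0 became 4 with DESeq2, 1 without a filter, 2 with controls without Cre and 1 without the mouse block, and was 0 to 1 without single replicates. In control segments the count of 5 became 3 in mice of 9 to 13 months and 3 without the mouse block (3 to 5 without single replicates, 3 without control 2 or 5), and in deficient segments it was 5 to 6. Pathway counts without single replicates were 15 to 23 proximally, 10 to 14 distally, 21 to 29 and 29 to 33 between segments of control and deficient mice, and 2 to 4 for the difference, which was 5 with DESeq2 and 4 without control 6 or deficient 2. Leaving out control mouse 6 and deficient mouse 3 together, chosen after seeing the data, gave 4, 1, 0, 4 and 5 of 8 genes. Over all genes, DESeq2 called 1504 rather than 973 distally and 528 rather than 178 for the difference, where mice of 9 to 13 months gave 106 and leaving out single replicates gave 102 to 225. Correlations of deviations between control and deficient mice of the same replicate number ran from -0.153 to 0.315. Those between different numbers were not computed, so whether the numbers pair mice was not settled. With the replicate block Isx distally was -1.45 (adjusted p = 0.103) and Stra6 proximally -1.35 (adjusted p = 0.0993). Lrat proximally was 0.63 (adjusted p = 0.0648) and Tgm2 distally 0.83 (adjusted p = 0.0879). That block called 1696 genes proximally and 689 distally. Of single-gene values, 101 lost their call and 24 gained one. The other 1612 were counted as unchanged, a number that includes values of Rbp4 and of levels, which had no call. The cause of the changes was not tested. Low counts limit the values of Stra6, Bco1, Rarb and Ttr and the Rbp4-201 split.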
